A study of Homo sapiens with 40 samples.

Results

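The proteins of the mitochondrial ribosome were followed through the transcripts of 77 nuclear genes, out of 28278 gene symbols in the count table of HEK293T cells. A gene was taken where its symbol was MRPL or MRPS with a number, with or without a letter from A to C, and where its mean over the 40 libraries was 10 counts or more. Of 78 such symbols, MRPS24 was left out at a mean of 0.35 counts. MRPS18B was the member nearest above the minimum, at a mean of 46.1 counts. The 77 genes comprised 49 MRPL genes, named for the large subunit, and 28 MRPS genes, named for the small subunit. They lay on 21 chromosomes, and all 77 were among the 16739 genes tested.

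The mitochondrial ribosome translates the few messages of mitochondrial DNA, whose products are core parts of the respiratory chain and the ATP synthase. Its RNAs are transcribed in the organelle, while its proteins are encoded in the nucleus, made in the cytosol and imported. The large subunit forms peptide bonds and the small subunit decodes the message. Some of the proteins have relatives in bacterial ribosomes and others are found only in mitochondria. The symbols are an imperfect guide to the particle: the products of MRPS18A and MRPS30 sit in the large subunit, and the product of MRPS36 is a component of alpha-ketoglutarate dehydrogenase.

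HEK293T is a human embryonic kidney line, and 5 lines derived from it each received 40 nM antimycin A, which blocks respiratory complex III, or vehicle for 6 hours, with 4 libraries per group. The dMTS-DELE1 cells were sgSLC25A12 cells, a knockout of the mitochondrial aspartate and glutamate carrier SLC25A12, with SLC25A12-F137S added back and dMTS-DELE1 added. DELE1 is a protein that relays mitochondrial stress to the cytosol. The F137S cells were sgSLC25A12 cells with SLC25A12-F137S, a further line was labelled sgSLC25A12 with SLC25A12-WT, the KO-vector cells were sgSLC25A12 cells with vector, and the WT-vector cells were wild type with vector. No source used here says whether each line is a single clone or what drives the added cDNAs. The libraries are labelled as biological replicates without mention of separate cultures. The p-values therefore set differences between groups against the spread between these libraries.

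Library totals ran from 30730335 to 31965438 counts. In vehicle, SLC25A12 averaged 3716 CPM (counts scaled to a common library total) in dMTS-DELE1 cells, 1853 CPM in F137S cells, 38.9 CPM in the line labelled with SLC25A12-WT, 3.08 CPM in KO-vector cells and 38.7 CPM in WT-vector cells. The 8 libraries of that line therefore matched WT-vector cells in SLC25A12 and did not exceed them, as the other add-back did, and they are called the labelled libraries here. That line is kept in every count over the 5 lines, although it may not be distinct from WT-vector cells. DELE1 averaged 5344 CPM in dMTS-DELE1 cells and 45.9 CPM in F137S cells. The stress-response gene CHAC1 averaged 17.1 CPM with antimycin and 1.90 CPM with vehicle in WT-vector cells, and 18.3 CPM in vehicle-treated dMTS-DELE1 cells against 2.97 CPM in vehicle-treated F137S cells. The HEK293T markers PAX2, NEFL and NEFM were detected, at group means from 2.00 to 2.90 CPM for PAX2. Of markers of other cell types, the leukocyte gene PTPRC and the endothelial gene PECAM1 were near 0, the hepatocyte gene ALB had group means from 0.111 to 0.804 CPM, and the fibroblast collagen gene COL1A1 had 16.7 to 20.6 CPM in every group.

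The genes of both subunits were lowest in dMTS-DELE1 cells and highest in WT-vector cells and the labelled libraries. The level of a subunit was taken as the mean over its genes of log2 CPM, with a prior count of 2. In vehicle, the MRPL mean was 5.91 ± 0.0256 in dMTS-DELE1 cells, 6.02 ± 0.0220 in F137S cells, 6.16 ± 0.0323 in the labelled libraries, 6.05 ± 0.0225 in KO-vector cells and 6.18 ± 0.0105 in WT-vector cells (SD, n = 4 each). The dMTS-DELE1 libraries did not overlap with the F137S libraries, and the KO-vector libraries did not overlap with the WT-vector libraries, whereas F137S and KO-vector libraries overlapped, as did labelled and WT-vector libraries. The MRPS mean in vehicle was 5.66 ± 0.00926 in dMTS-DELE1 cells, 5.75 ± 0.0218 in F137S cells, 5.85 ± 0.0143 in the labelled libraries, 5.78 ± 0.00753 in KO-vector cells and 5.87 ± 0.00878 in WT-vector cells. Its order was the same, and here the labelled libraries, at 5.86 or below, also lay under the WT-vector libraries without overlap, by a margin smaller than either SD.

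With antimycin, the MRPS mean log2 CPM lay below its vehicle level without overlap in 4 of the 5 lines. The MRPL mean did so in WT-vector cells alone. As a share of all counts, the MRPS genes separated only in WT-vector cells (0.2106% with antimycin, 0.2154% with vehicle) and dMTS-DELE1 cells (0.1834% and 0.1868%). These shares overlapped in KO-vector cells (0.2022% and 0.2033%), the labelled libraries and F137S cells. In WT-vector cells the MRPL mean was 6.11 ± 0.0223 with antimycin and 6.18 ± 0.0105 with vehicle, and the MRPS mean was 5.80 ± 0.00730 with antimycin and 5.87 ± 0.00878 with vehicle. In KO-vector cells the MRPL mean was 6.03 ± 0.00416 with antimycin and 6.05 ± 0.0225 with vehicle, which overlapped, while the MRPS mean was 5.75 ± 0.00689 with antimycin and 5.78 ± 0.00753 with vehicle, which did not. In the labelled libraries the MRPS mean was 5.80 ± 0.0257 with antimycin and 5.85 ± 0.0143 with vehicle, and in dMTS-DELE1 cells it was 5.62 ± 0.0194 with antimycin and 5.66 ± 0.00926 with vehicle. The MRPL mean of dMTS-DELE1 cells, 5.89 ± 0.0217 with antimycin and 5.91 ± 0.0256 with vehicle, overlapped. Among F137S libraries neither subunit separated from vehicle: the MRPS mean was 5.70 ± 0.0424 with antimycin and 5.75 ± 0.0218 with vehicle. The 77 genes together took 0.551% ± 0.00534 of all counts in antimycin-treated dMTS-DELE1 cells, the lowest group, and 0.638% ± 0.00405 in vehicle-treated WT-vector cells, the highest. In bulk RNA, fewer cells that express a gene and less of its RNA per cell cannot be told apart.

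The distance between the subunits, the MRPL mean minus the MRPS mean in the same library, moved little. CPM values are not per length, so the distance itself does not rank the subunits, and only its change between groups was read. In vehicle it was 0.26 ± 0.0223 in KO-vector cells and 0.30 ± 0.0132 in WT-vector cells, and these overlapped. With antimycin it was 0.27 ± 0.00929 in KO-vector cells and 0.31 ± 0.0153 in WT-vector cells, without overlap. Without MRPL4, MRPL34 and MRPL54, 3 genes of the short arm of chromosome 19 described further on, it was 0.34 ± 0.00949 in KO-vector cells and 0.34 ± 0.0159 in WT-vector cells with antimycin. With members sorted by the subunit that holds the protein, all 19p genes included, large minus small was 0.06 ± 0.0255 in KO-vector cells and 0.12 ± 0.0188 in WT-vector cells in vehicle, without overlap. Antimycin and vehicle libraries overlapped in the distance by symbol in each of the 5 lines.

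**Figure D1:**
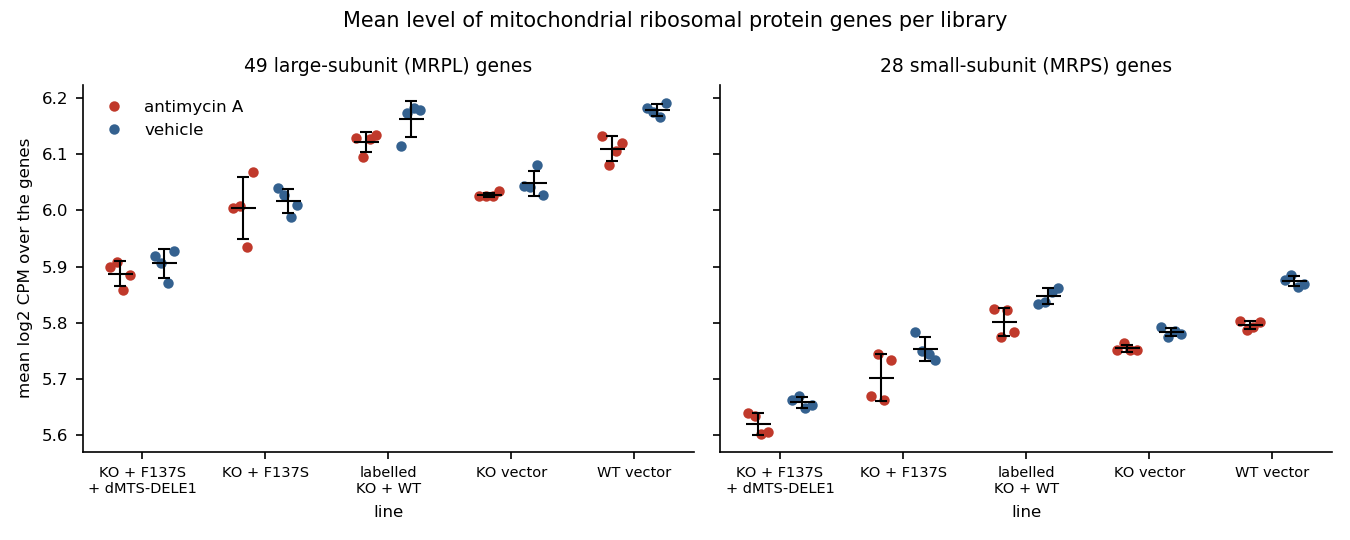
Mean log2 CPM of the 49 MRPL genes and of the 28 MRPS genes in each library, by line, with antimycin A left of vehicle; points are libraries and black bars are the mean and SD of 4 libraries. The dMTS-DELE1 libraries are lowest for both subunits, and the WT-vector and labelled libraries highest.

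Antimycin moved more of these genes down than up in every line, although in F137S cells this rested on 1 library. In WT-vector cells, 32 of 77 genes fell and 7 rose at an adjusted p under 0.05 (edgeR quasi-likelihood test, Benjamini-Hochberg adjustment over all tested genes), where 26.4% of all tested genes fell, 25.5% rose and 51.9% passed in either direction. The share of members past the threshold in either direction, 50.6%, was thus close to that of all tested genes, and what differed was the direction. Of the 49 MRPL genes 18 fell and 5 rose, with a median log2 fold change of -0.07. Of the 28 MRPS genes 14 fell and 2 rose, with a median of -0.09, and the median over all tested genes was 0.01.

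The other lines were counted in the same way. In KO-vector cells 26 members fell and 11 rose, where 24.7% of all tested genes fell, 26.4% rose and 51% passed either way. In the labelled libraries 28 fell and 13 rose, where 26.4% of all tested genes fell, 25.9% rose and 52.3% passed. In F137S cells 23 fell and 10 rose, where 24.9% of all tested genes fell, 26.3% rose and 51.2% passed. Without F137S antimycin replicate 3, 13 fell and 18 rose there. In dMTS-DELE1 cells 21 fell and 7 rose, where 17.3% of all tested genes fell, 17.6% rose and 34.9% passed. The 7 that rose there became 2 to 4 without dMTS-DELE1 vehicle replicate 1 or any one of the 4 antimycin replicates, and 4 in a fit of these groups alone. The MRPS medians were -0.06 in KO-vector cells, -0.08 in the labelled libraries, -0.07 for F137S and -0.03 for dMTS-DELE1, and the MRPL medians were -0.02, -0.03, -0.02 and -0.03 in the same order. Members whose symbol number is that of a bacterial ribosomal protein family (MRPL up to 36 and MRPS up to 21, 44 genes) fell in 21 cases and rose in 2 in WT-vector cells, and the remaining 33 fell in 11 cases and rose in 5.

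No member fell in one line and rose in another, close to the share of all tested genes that did, 0.944%. Of the 77 genes, 15 fell in all 5 lines, 9 of them MRPL genes, where 13.1% of all tested genes fell in all 5: MRPL3, MRPL13, MRPL16, MRPL18, MRPL20, MRPL30, MRPL36, MRPL44, MRPL50, MRPS7, MRPS12, MRPS16, MRPS18C, MRPS27 and MRPS31. MRPL10, MRPL58 and MRPS5 rose in all 5, where 11.3% of all tested genes did. Between the labelled libraries, counted here as a line, and WT-vector cells, 0% of tested genes passed in vehicle and 0.00597% with antimycin. Agreement over 5 lines may therefore be agreement over fewer distinct lines. A further 22 members passed in no line, against 26.9% of all tested genes. Counted in at least 1 line, 37 members fell and 18 rose, where 35.1% of all tested genes fell and 39% rose. When each of the 40 libraries was left out in turn, the number that fell in all 5 lines ranged from 10 to 16, and MRPL3, MRPL16, MRPL30, MRPL50 and MRPS27 were in it every time. The number that rose in all 5 was 1, MRPL10, when dMTS-DELE1 vehicle replicate 1, dMTS-DELE1 antimycin replicate 1 or dMTS-DELE1 antimycin replicate 2 was left out.

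**Figure D2:**
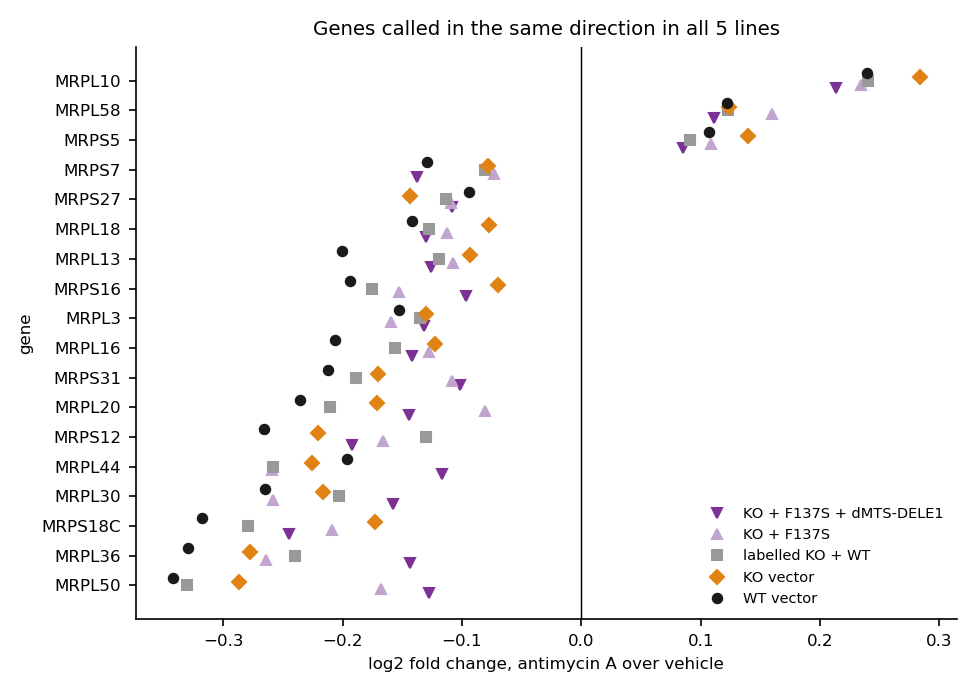
Log2 fold change, antimycin A over vehicle, of the 18 genes that passed the test in the same direction in all 5 lines. Each point is a line, the labelled libraries included. The 15 genes that fell lie left of 0 and MRPL10, MRPL58 and MRPS5 lie right of it.

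Among the genes that fell, MRPL50, a mitochondria-specific protein of the large subunit, had 54.9, 53.2, 55.0 and 57.2 CPM in antimycin-treated WT-vector cells, against 71.3, 67.7, 67.9 and 72.2 CPM in vehicle. The antimycin libraries all lay below the vehicle libraries, with a log2 fold change of -0.34 ± 0.04 (SE, adjusted p = 1.52e-12). In dMTS-DELE1 cells MRPL50 had 49.99, 51.8, 51.0 and 51.8 CPM with antimycin, against 55.7, 56.3, 55.9 and 55.7 CPM with vehicle. The groups were again apart, with a log2 fold change of -0.13 ± 0.04 (adjusted p = 0.00586).

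MRPL36, the counterpart of the small bacterial large-subunit protein bL36, had 28.8, 26.9, 27.3 and 27.8 CPM in antimycin-treated WT-vector cells, against 33.1, 35.1, 35.8 and 35.3 CPM in vehicle. These did not overlap, and the log2 fold change was -0.33 ± 0.05 (adjusted p = 6.05e-08). In dMTS-DELE1 cells the log2 fold change was -0.14 ± 0.05 (adjusted p = 0.0256). That call was lost without vehicle replicate 2 (-0.13, adjusted p = 0.0776) and without antimycin replicate 3 (-0.12, adjusted p = 0.0988) of dMTS-DELE1 cells.

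MRPL30, a large-subunit protein of the bacterial uL30 family, had 125.4, 125.8, 129.7 and 125.0 CPM in antimycin-treated WT-vector cells, against 151.9, 155.1, 151.4 and 149.5 CPM in vehicle. Its log2 fold change was -0.27 ± 0.03 (adjusted p = 1.73e-14), with all antimycin libraries below all vehicle libraries. It was -0.26 ± 0.03 in F137S cells (adjusted p = 5.62e-14) and -0.16 ± 0.03 in dMTS-DELE1 cells (adjusted p = 1.05e-06).

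MRPS17 of the small subunit, which belongs to the bacterial uS17 family of early rRNA binders, had the largest fall of a member in WT-vector cells. It had 40.5, 36.9, 39.4 and 38.7 CPM with antimycin, against 50.9, 50.7, 49.97 and 48.3 CPM with vehicle, without overlap. The log2 fold change was -0.36 ± 0.05 (adjusted p = 2.66e-10). MRPS18C, 1 of the 3 human proteins of the bS18 family and the one that sits in the small subunit at its usual place, had 12.7, 10.1, 11.3 and 12.4 CPM with antimycin, against 14.03, 15.1, 14.4 and 14.4 CPM with vehicle in WT-vector cells. These were apart as well, with a log2 fold change of -0.32 ± 0.07 (adjusted p = 0.000163). MRPS18A, the family member in the large subunit, fell by 0.24 on the log2 scale in dMTS-DELE1 cells (adjusted p = 0.00691). It passed in no other line, and its log2 fold change in KO-vector cells was 0.02. MRPS18B had the fewest counts of all members, at group means from 1.07 to 1.73 CPM.

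Of the 2 stalk genes, MRPL10 and MRPL12, which encode the base and the flexible arms of the stalk that recruits translation factors, one rose and the other fell in WT-vector cells. MRPL10 had 74.7, 78.0, 82.0 and 73.5 CPM with antimycin, against 62.0, 68.6, 63.6 and 66.9 CPM with vehicle. All antimycin libraries were higher, and the log2 fold change was 0.24 ± 0.03 (adjusted p = 1.22e-08). In dMTS-DELE1 cells MRPL10 had 73.1, 73.8, 74.8 and 74.0 CPM with antimycin, against 66.5, 63.2, 60.8 and 64.5 CPM with vehicle, again without overlap, at a log2 fold change of 0.21 ± 0.03 (adjusted p = 5.43e-07). MRPL12, in contrast, averaged 176.2 ± 5.54 CPM with antimycin and 198.7 ± 7.02 CPM with vehicle in WT-vector cells (SD, n = 4 each), a log2 fold change of -0.17 ± 0.03 (SE, adjusted p = 3.32e-05).

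MRPL58, also known as ICT1, is a peptidyl-tRNA hydrolase built into the large subunit that releases stalled chains. It had 49.5, 51.8, 53.2 and 50.9 CPM with antimycin in WT-vector cells, against 48.3, 46.9, 44.9 and 48.6 CPM with vehicle, with every antimycin library above every vehicle library. The log2 fold change was 0.12 ± 0.04 in WT-vector cells (adjusted p = 0.00709), 0.16 ± 0.04 in F137S cells (adjusted p = 0.000427) and 0.11 ± 0.04 in dMTS-DELE1 cells (adjusted p = 0.0196). In dMTS-DELE1 cells it no longer passed without vehicle replicate 1 (0.10, adjusted p = 0.0631), antimycin replicate 1 (0.10, adjusted p = 0.0565) or antimycin replicate 2 (0.08, adjusted p = 0.135).

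**Figure D3:**
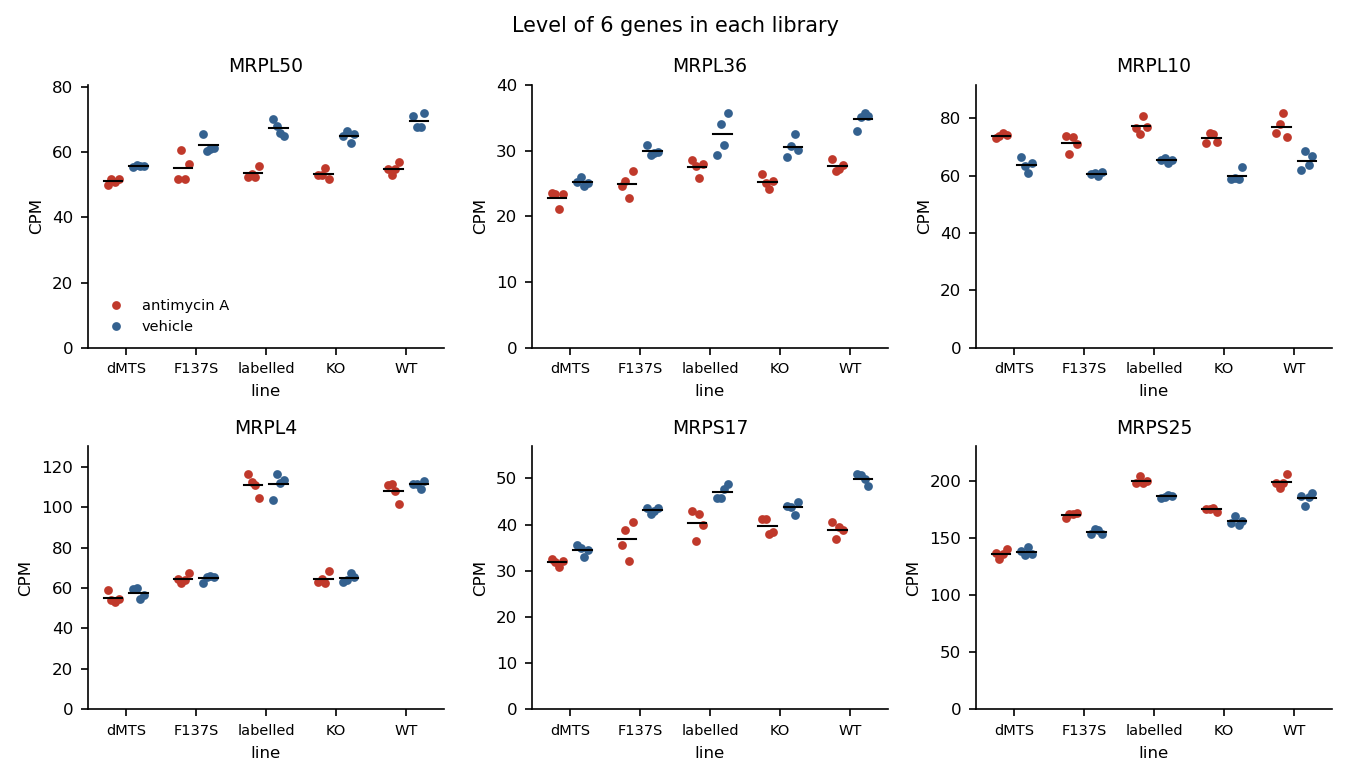
CPM of 6 genes in each library, by line, with antimycin A left of vehicle; points are libraries and black lines are group means. The means of MRPL50 and MRPL36 are lower and that of MRPL10 higher with antimycin in each line, MRPL4 is low in the dMTS-DELE1, F137S and KO-vector lines, and the mean of MRPS25 is higher with antimycin in each line but dMTS-DELE1.

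Other genes of mitochondrial gene expression were counted from lists chosen, like the members, with earlier results of these data known. In WT-vector cells with antimycin, 12 of 19 genes of mitochondrial DNA transcription, RNA processing and replication fell and 0 rose, with a median log2 fold change of -0.16. Among them were TFB2M, the promoter-melting transcription factor, at -0.49 ± 0.04 (SE) and MTPAP, the mitochondrial poly(A) polymerase, at -0.46 ± 0.04. Of 26 assembly factors 10 fell and 2 rose, of 16 translation factors 6 fell and 1 rose, and of 20 mitochondrial tRNA synthetases 11 fell and 3 rose. GFM1, the mitochondrial elongation factor G, changed by -0.35 ± 0.02, and PTCD3, a small-subunit protein without an MRP symbol, by -0.35 ± 0.03. Of 10 regulators of nuclear genes for mitochondria 7 fell and 0 rose, including MYC at -0.81 ± 0.04 and PPARGC1B, a coactivator of such genes, at -0.63 ± 0.03. The 80 cytosolic ribosomal protein genes had 16 that rose and 6 that fell, with a median of 0.04. Over all tested genes, for comparison with each of these lists, 26.4% fell and 25.5% rose.

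Member promoters were examined, whether the gene moved or not, in RefSeq sequence of build GRCh38.p14. They ran from 250 bases before to 50 after a start of each gene. A promoter was found for 68 of the 77 members. On either strand, the ETS core CCGGAAG occurred in 42.6% of member promoters, 17.2% of the 12411 promoters of tested genes and 10.7% of all 27305 promoters. The YY1 core AAGATGGC occurred in 27.9% of member promoters, 4.83% of those of tested genes and 3.03% of all. An ETS core that ends in AAG can share those letters with a YY1 core. The NRF1 core GCGCATGC occurred in 8.82% of member promoters and 5.09% of those of tested genes, and the E-box CACGTG in 8.82% of member promoters and 9.81% of those of tested genes. The C/EBP-ATF element TGATGNAA occurred in 1 member promoter, or 1.47%, and in 1.77% of those of tested genes. Of the 68, 24 held none of these letters. A match describes the sequence and shows no binding. Among the 14 promoters of genes that fell in all 5 lines, 8 held the ETS core and 6 the YY1 core, and among the 16 of genes that rose in at least 1 line, 6 held the ETS core and 3 the YY1 core.

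Windows from 150 bases before to 30 after the start are shown for MRPL36, MRPL30, MRPS18C and MRPL20, which fell in all 5 lines, and for MRPL58, which rose in all 5, each read 5′ to 3′ along its gene. The MRPL36 window lies within the annotated gene span, chr5:1798385-1801434, and so follows a start other than the outermost one. Capitals mark the letters of a searched motif: an E-box and a YY1 core on the opposite strand in MRPL36, an ETS core on the opposite strand in MRPL30, an NRF1 core in MRPS18C, a pair of ETS cores and a YY1 core in MRPL20, and an ETS core in MRPL58.
MRPL36, chr5:1799808-1799987, minus strand: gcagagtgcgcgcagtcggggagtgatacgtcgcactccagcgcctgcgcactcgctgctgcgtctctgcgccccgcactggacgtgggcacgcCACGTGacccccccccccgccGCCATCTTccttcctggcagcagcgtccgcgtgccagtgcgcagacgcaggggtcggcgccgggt
MRPL30, chr2:99181034-99181213, plus strand: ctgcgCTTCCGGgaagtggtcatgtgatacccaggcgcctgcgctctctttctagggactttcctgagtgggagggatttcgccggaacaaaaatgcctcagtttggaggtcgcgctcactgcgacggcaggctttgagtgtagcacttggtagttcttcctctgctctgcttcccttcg
MRPS18C, chr4:83455908-83456087, plus strand: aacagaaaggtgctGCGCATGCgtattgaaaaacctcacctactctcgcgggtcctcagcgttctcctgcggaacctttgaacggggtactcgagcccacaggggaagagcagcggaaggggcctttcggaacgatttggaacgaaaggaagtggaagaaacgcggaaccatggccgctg
MRPL20, chr1:1407264-1407443, minus strand: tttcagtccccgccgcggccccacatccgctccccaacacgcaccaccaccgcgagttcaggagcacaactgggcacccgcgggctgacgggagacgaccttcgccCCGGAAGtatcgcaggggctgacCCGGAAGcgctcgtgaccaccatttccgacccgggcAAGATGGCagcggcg
MRPL58, chr17:75012520-75012699, plus strand: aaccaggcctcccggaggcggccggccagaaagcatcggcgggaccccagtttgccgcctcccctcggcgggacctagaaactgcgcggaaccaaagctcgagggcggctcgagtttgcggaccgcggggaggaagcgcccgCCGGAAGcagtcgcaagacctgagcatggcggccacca
An ETS core thus stood in the window of a gene that rose as well as in windows of genes that fell.

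Between the knockout and wild type, most members were lower in the knockout, and the 3 on the short arm of chromosome 19 were lowest by far. In vehicle, 41 of 77 genes were lower and 8 higher in KO-vector than in WT-vector cells, where 25.6% of all tested genes were lower, 22.7% higher and 48.3% passed either way. Of the MRPL genes 26 were lower and 5 higher (median log2 fold change -0.10), and of the MRPS genes 15 were lower and 3 higher (median -0.12), where the median over all tested genes was -0.01. With antimycin 31 were lower and 14 higher, where 24.5% of all tested genes were lower, 23.5% higher and 48% passed. Under both treatments 30 were lower and 8 higher, and 0 passed in opposite directions, where 19.6% of all tested genes were lower under both, 17.9% higher and 0.149% opposite. Cytosolic ribosomal protein genes showed the same lean in vehicle, with 51 of 80 lower and 6 higher in KO-vector cells. NEFM, a HEK293T marker, averaged 73.8 CPM in KO-vector cells and 225.4 CPM in WT-vector cells in vehicle. Its part in these differences was not tested.

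MRPL54, a mitochondria-specific large-subunit protein, had 17.8, 16.5, 18.3 and 17.7 CPM in vehicle-treated KO-vector cells, against 34.9, 29.8, 31.9 and 30.7 CPM in WT-vector cells. The log2 fold change was -0.86 ± 0.07 (SE, adjusted p = 9.38e-17), without overlap. MRPL4, of the bacterial uL4 family that lines the peptide exit tunnel, had 63.0, 64.1, 67.3 and 65.4 CPM in KO-vector cells, against 111.5, 111.7, 109.1 and 112.8 CPM in WT-vector cells. Its log2 fold change was -0.78 ± 0.04 (adjusted p = 3.35e-32). MRPL34, of the bacterial bL34 family, had 29.5, 30.8, 29.3 and 30.6 CPM in KO-vector cells, against 46.9, 46.6, 48.5 and 45.9 CPM in WT-vector cells, at a log2 fold change of -0.65 ± 0.05 (adjusted p = 4.24e-19). All 3 genes lie on 19p, where the 489 tested genes had a median log2 fold change of -0.50 and 74% were lower, against 3.48% higher, in KO-vector cells. In the labelled libraries against KO-vector cells in vehicle, the same 489 genes had a median of 0.49. The cause was not tested.

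Without these 3 genes the lean stayed: 23 of the other 46 MRPL genes were lower and 5 higher in KO-vector cells in vehicle, with a median of -0.09. MRPL41, a mitochondria-specific large-subunit protein, had 32.2, 34.7, 39.0 and 36.8 CPM in KO-vector cells, against 48.5, 46.9, 50.7 and 49.4 CPM in WT-vector cells, without overlap (log2 fold change -0.45 ± 0.05, adjusted p = 8.04e-11). Of the small subunit, MRPS34, a mitochondria-specific protein, changed by -0.38 ± 0.04 (adjusted p = 1.82e-10). MRPS12, of the uS12 family at the decoding centre, changed by -0.34 ± 0.05 (adjusted p = 8.75e-09).

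Members that were higher in the knockout came from both subunits. Of the 8, MRPL20 (log2 fold change 0.22) and MRPS15 (0.24) lie on 1p, where 40.4% of 975 tested genes were higher and 16.1% lower in KO-vector cells, while MRPL37 on that arm was lower at -0.10 and is named although it fell outside the rule. MRPS34, given above as lower, lies on 16p, where 36.8% of 435 tested genes were lower and 14% higher. MRPL49, a mitochondria-specific large-subunit protein, had 150.9, 150.8, 154.9 and 149.9 CPM in KO-vector cells, against 118.9, 125.2, 118.2 and 122.8 CPM in WT-vector cells, and the log2 fold change was 0.32 ± 0.03 (adjusted p = 1.54e-18). MRPS28 had 47.5, 47.7, 47.2 and 47.3 CPM in KO-vector cells, against 39.9, 37.6, 38.7 and 37.9 CPM in WT-vector cells, and the log2 fold change was 0.30 ± 0.04 (adjusted p = 6.27e-09). In both genes all KO-vector libraries lay above all WT-vector libraries.

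**Figure D4:**
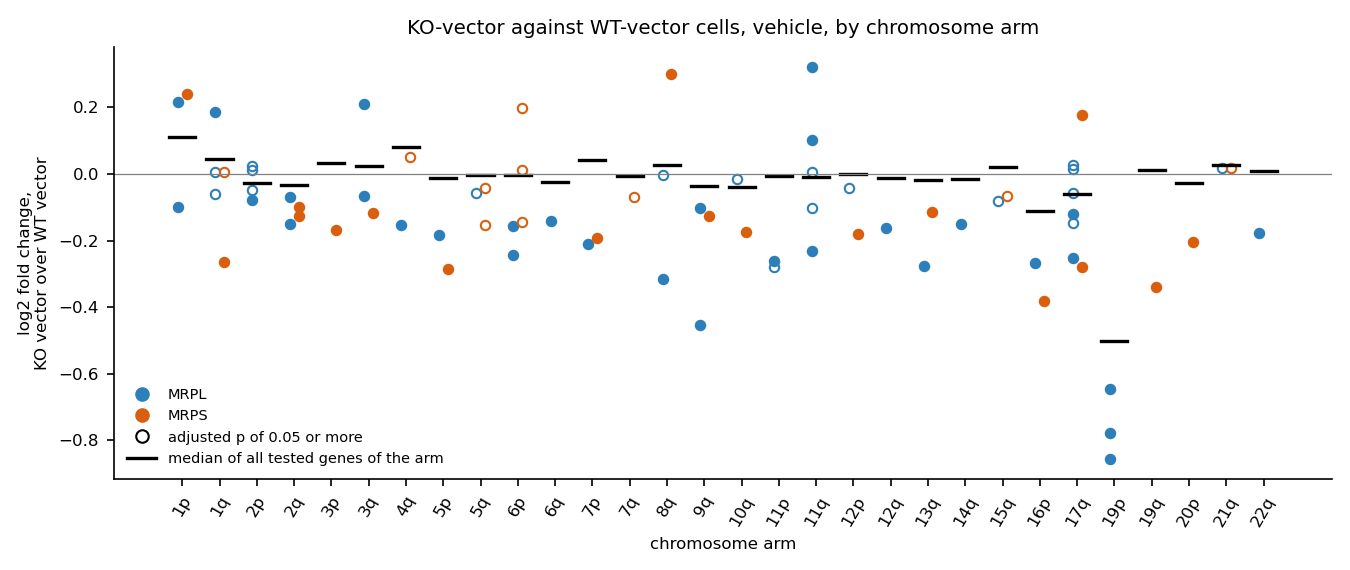
Log2 fold change, KO-vector over WT-vector cells in vehicle, of each member by chromosome arm; filled points have an adjusted p under 0.05 and black lines are the median of all tested genes of the arm. The 3 members on 19p, MRPL4, MRPL34 and MRPL54, lie at -0.78, -0.65 and -0.86.

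The libraries labelled KO plus SLC25A12-WT were set against KO-vector cells as their label asks. In vehicle 37 members were higher and 9 lower in the labelled libraries, where 25.3% of all tested genes were higher, 22.6% lower and 47.8% passed. With antimycin 38 were higher and 11 lower, where 24.7% of all tested genes were higher, 23.5% lower and 48.2% passed. Against WT-vector cells, edgeR called 0 members in vehicle (background 0%, 4 members at an unadjusted p under 0.05, lowest adjusted p = 1) and 0 with antimycin (background 0.00597%, 3 members, lowest adjusted p = 0.947), and DESeq2 called 0 in each. Log2 fold changes of the labelled libraries against WT-vector cells ran from -0.30 to 0.14 in vehicle. Since the SLC25A12 level of the labelled libraries goes against their label, no return of these genes to a wild-type level can be read from them.

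Between F137S and KO-vector cells, edgeR called 0 members in vehicle (background 0.0836%, 4 members at an unadjusted p under 0.05, lowest adjusted p = 0.172) and 0 with antimycin (background 0.114%, 8 members, lowest adjusted p = 0.313). DESeq2 called 0 in each. In vehicle the log2 fold changes of the 77 genes ran from -0.14 to 0.05 with a median of -0.03 and a median SE of 0.04, and none passed the adjustment over all tested genes, which does not show that the lines were alike. The MRPS mean log2 CPM was 5.70 ± 0.0424 in F137S cells and 5.75 ± 0.00689 in KO-vector cells with antimycin, without overlap, whereas in vehicle the groups overlapped. The MRPS genes took 0.1995% ± 0.00213 of counts in F137S cells and 0.2033% ± 0.000512 in KO-vector cells in vehicle, also without overlap, while with antimycin these shares overlapped. MRPL4 averaged 64.8 ± 1.68 CPM in F137S cells and 64.9 ± 1.85 CPM in KO-vector cells in vehicle (SD, n = 4 each).

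Adding dMTS-DELE1 to F137S cells went with lower levels of both subunits. The 2 lines also differed in SLC25A12, at 3715.5 CPM in dMTS-DELE1 cells and 1852.5 CPM in F137S cells in vehicle. The part of SLC25A12 in the differences below was not tested. In vehicle, 46 of 77 members were lower and 2 higher in dMTS-DELE1 than in F137S cells, where 24.1% of all tested genes were lower, 17.7% higher and 41.8% passed either way. Without F137S vehicle replicate 3, 42 were lower and 4 higher. The lower genes were 29 of 49 MRPL and 17 of 28 MRPS genes, with medians of -0.12 for each subunit and -0.02 over all tested genes. With antimycin 47 were lower and 6 higher, where 28.8% of all tested genes were lower, 25.5% higher and 54.3% passed, at medians of -0.13 for MRPL and -0.12 for MRPS genes. Under both treatments 43 members were lower and 2 higher, and 0 passed in opposite directions, where 19.2% of all tested genes were lower under both, 14.5% higher and 0.49% opposite. Members whose symbol number is that of a bacterial ribosomal protein family, as above, were lower in 30 of 44 cases in vehicle. The remaining 33 members, sorted by symbol number alone, were lower in 16 cases.

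The falls were modest and spread over many genes. MRPL34 had 23.6, 22.8, 18.5 and 22.2 CPM in vehicle-treated dMTS-DELE1 cells, against 28.3, 27.9, 26.6 and 27.9 CPM in F137S cells, the largest fall of a member (log2 fold change -0.35 ± 0.05, adjusted p = 6.99e-08). MRPS17 had 35.6, 34.9, 32.9 and 34.5 CPM in dMTS-DELE1 cells, against 43.5, 42.4, 43.0 and 43.6 CPM in F137S cells (-0.32 ± 0.05, adjusted p = 2.24e-08). Neither gene's groups overlapped. MRPL41 had 29.5, 25.5, 26 and 27.5 CPM in dMTS-DELE1 cells, against 34.4, 36.6, 30.2 and 33.4 CPM in F137S cells, with the lowest F137S library close above the highest dMTS-DELE1 library (-0.31 ± 0.06, adjusted p = 4.25e-06). MRPL14, of the uL14 family at the face where the subunits meet, had 33.4, 32.4, 31.7 and 32.97 CPM in dMTS-DELE1 cells, against 40.3, 38.5, 38.7 and 38.5 CPM in F137S cells (-0.26 ± 0.05, adjusted p = 1.87e-06), which were apart. MRPL34 again lies on 19p, where 32.3% of the 489 tested genes were lower and 12.5% higher. The stalk gene MRPL12 changed by -0.21 ± 0.03 (adjusted p = 1.72e-06).

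MRPL58 went the other way. It had 52.0, 51.5, 53.1 and 51.4 CPM in vehicle-treated dMTS-DELE1 cells, against 46.6, 43.6, 44.7 and 46.4 CPM in F137S cells, without overlap (log2 fold change 0.20 ± 0.04, adjusted p = 2.12e-05). The other gene called higher in vehicle, MRPS10 at 0.09, had overlapping libraries and is named although it fell outside the rule. MRPL58 thus was the only member with separate groups that was higher in dMTS-DELE1 cells in vehicle. It was also higher with antimycin in all 5 lines, although its antimycin call in dMTS-DELE1 cells depended on single libraries, as given above.

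Mitochondrial gene expression around the ribosome moved in the same direction. The background was again 24.1% of all tested genes lower and 17.7% higher in vehicle. In vehicle, 12 of 19 genes of mitochondrial DNA expression were lower and 0 higher in dMTS-DELE1 cells, with a median of -0.15, and 13 of 20 mitochondrial tRNA synthetases were lower and 1 higher. Of 26 assembly factors 11 were lower and 3 higher, and of 16 translation factors 7 were lower and 2 higher, among them TUFM, the mitochondrial elongation factor Tu, at -0.24 ± 0.02 (SE). Of the 5 ribosomal proteins without an MRP symbol 4 were lower and 0 higher, with CHCHD1 at -0.32. Of the 80 cytosolic ribosomal protein genes 24 were lower and 3 higher, with a median of -0.05. NEFM averaged 60.9 CPM in dMTS-DELE1 cells and 72.2 CPM in F137S cells in vehicle, and its part in these differences was not tested.

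**Figure D5:**
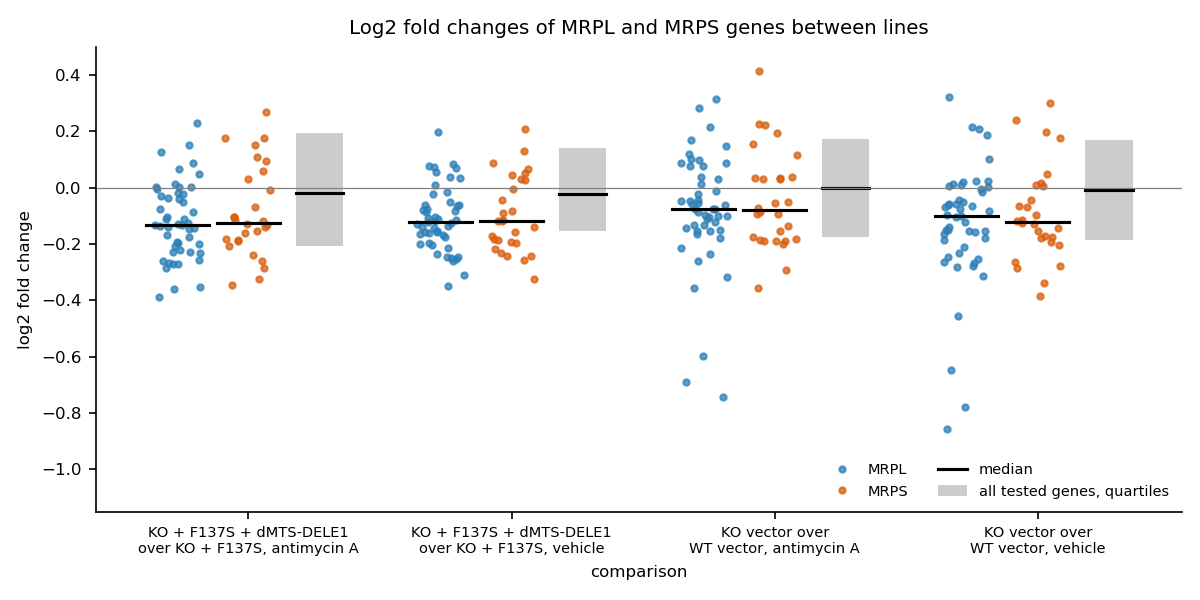
Log2 fold change of each MRPL and MRPS gene for dMTS-DELE1 over F137S cells and for KO-vector over WT-vector cells, under antimycin A and under vehicle; black lines are medians and grey boxes the quartiles of all tested genes. Medians of both subunits lie below 0 in all 4 comparisons, and MRPL4, MRPL34 and MRPL54 form the lower tail of the knockout comparisons.

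Whether the antimycin response itself differed between lines was tested as a difference of responses. For KO-vector minus WT-vector cells edgeR called 0 members (background 1.57%, with 0.836% higher and 0.729% lower), 8 had an unadjusted p under 0.05, and DESeq2 called 0. Of the calls over all tested genes 53.4% were higher in KO-vector cells, and 42.2% under DESeq2 size factors. The lowest adjusted p of a member was that of MRPS17, at a difference of 0.22 ± 0.07 (adjusted p = 0.0604). For the labelled libraries minus KO-vector cells edgeR called 0 (background 1.65%, of which 0.705% higher and 0.944% lower, 4 at an unadjusted p under 0.05) and DESeq2 0, with 42.8% of all calls higher in the labelled libraries, and 57.3% under DESeq2 size factors. For F137S minus KO-vector cells edgeR called 0 (background 0%, 2 at an unadjusted p under 0.05) and DESeq2 0. For dMTS-DELE1 minus F137S cells 2 members passed, where 11.9% of all tested genes did, 8.24% with a higher and 3.7% with a lower response in dMTS-DELE1 cells.

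MRPS25, a mitochondria-specific small-subunit protein, was the firmer of these. In dMTS-DELE1 cells it had 137.04, 131.9, 136.4 and 140.3 CPM with antimycin, against 138.8, 135.6, 141.9 and 135.8 CPM with vehicle, which overlapped. In F137S cells it had 167.8, 170.8, 171.6 and 172.1 CPM with antimycin, against 153.5, 158.3, 156.7 and 153.2 CPM with vehicle, all higher with antimycin. The difference of the log2 responses was -0.15 ± 0.03 (adjusted p = 0.000618), and it stayed between -0.18 and -0.14 with an adjusted p of at most 0.00328 under every alternative and with each library left out. MRPS25 was also lower in dMTS-DELE1 than in F137S cells with antimycin, at -0.32 ± 0.02 (adjusted p = 1.01e-20).

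MRPS22, a mitochondria-specific small-subunit protein mutated in a form of combined oxidative phosphorylation deficiency, had 64.4, 67.3, 67.8 and 65.4 CPM with antimycin in dMTS-DELE1 cells, against 69.4, 63.3, 67.8 and 65.0 CPM with vehicle. In F137S cells it had 59.4, 59.3, 57.7 and 58.2 CPM with antimycin, against 64.6, 64.7, 65.5 and 65.2 CPM with vehicle, all lower with antimycin, while the dMTS-DELE1 groups overlapped. The difference was 0.14 ± 0.05 (adjusted p = 0.046). It passed in 2 of the 16 fits with 1 library of these groups left out, without dMTS-DELE1 vehicle replicate 3 or antimycin replicate 1, and in the other 14 the difference was 0.11 to 0.15 with an adjusted p from 0.0568 to 0.176. It did not pass either in a fit of the compared groups alone (0.13, adjusted p = 0.111).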

How the data were processed

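Poly(A) RNA was read as 150-base pairs in 40 libraries, per the labels' protocols. The deposited table holds raw counts per gene symbol, without normalization by the authors. HISAT2 2.1.0, featureCounts 2.0.6 and build hg38 are named in the submitters' processing notes. No source used here gives the counting settings, annotation or strandedness. In GENCODE v29, 15 members share an exon with another gene on the same strand and 29 on the opposite strand, so their counts are uncertain. Among those named here, these are MRPL12, MRPL20, MRPL30, MRPS5, MRPS16, MRPS17 and MRPS28 on the same strand. On the opposite strand they are MRPL4, MRPL13, MRPL20, MRPL23, MRPL34, MRPL37, MRPL44, MRPL49, MRPS7, MRPS12, MRPS16, MRPS18A, MRPS18C, MRPS22, MRPS25 and MRPS27. Even numbers made up 55.1% to 58.7% of counts from 1 to 20 per library, and fits of halved counts and without the labelled libraries were chosen after seeing the data.

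Counts were fitted with edgeR 4.0.16 (R 4.3.3, limma 3.58.1) after filterByExpr and TMM scaling, by robust quasi-likelihood with a coefficient for each group of 4 libraries, and 19 contrasts were adjusted by Benjamini-Hochberg over 16739 genes. The common biological coefficient of variation was 0.0509. CPM values use TMM-scaled totals. Alternatives were DESeq2 1.42.0 (size factors, Wald test), no filter, a replicate block, fits of the compared groups alone or without the labelled libraries, halved counts and each library left out. Members and lists were chosen with earlier results of these data known. Up to 8 members each way were named per comparison, by log2 fold change among those past the threshold without overlap, with MRPL12, MRPS18A, MRPS18B, MRPS18C, MRPL58, MRPS30, MRPS36, MRPS27, MRPL23, MRPL4, MRPL34 and MRPL54 allowed throughout. Replicate numbers did not pair libraries. The 60 replicate pairs differed by 2.95 to 5.81 in chi-square per gene, with 0 identical. Steps were tested on simulated data. Arms were cut at approximate centromere positions.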

Additional observations from a re-analysis of the deposited data

Results flagged for a closer look

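In groups of 4 libraries, a library stood apart where its gap to the nearest of the others exceeded Dixon's critical share of the group's range, which chance gives in about 1 of 20 groups, and 12 of 200 groups tested met it. In the labelled libraries with vehicle, replicate 1 was low in the members' share of counts, at 0.618%, and in the MRPL mean log2 CPM, at 6.11. Replicate 2 of the labelled libraries with antimycin was low in the MRPL mean, at 6.10. In KO-vector cells with antimycin, replicate 4 was high in the MRPL mean, at 6.03, and replicate 2 in the MRPS mean, at 5.76.

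Of single genes, MRPL36 was low in dMTS-DELE1 antimycin replicate 3, at 21.2 CPM, and MRPS18C stood apart in dMTS-DELE1 antimycin replicate 2, at 14.3 CPM. MRPL30 was high in WT-vector antimycin replicate 3, at 129.7 CPM, and MRPL10 in KO-vector vehicle replicate 4, at 63.0 CPM. MRPL4 was low, at 62.3 CPM, and MRPL14 high, at 40.3 CPM, in F137S vehicle replicate 1. MRPS22 stood apart in KO-vector antimycin replicate 4, at 63.2 CPM.

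The antimycin responses of MRPS25 and MRPS22 differed between dMTS-DELE1 and F137S cells in the test of the difference itself, by -0.15 for MRPS25 and by 0.14 for MRPS22 on the log2 scale. The call of MRPS22 held in only 2 of 16 fits with a library left out.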

How the results depend on the processing

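The counts of members called in either direction kept within 1.5 times of the reported value, and no fold change of a named member turned sign, under size factors of DESeq2, its Wald test, no filter on low counts, halved counts, a fit of the compared groups alone, a fit without the labelled libraries and the replicate block, with these exceptions. For the difference of responses between dMTS-DELE1 and F137S cells, 4 members (3 higher, 1 lower) instead of 2 were called under DESeq2's size factors and Wald test, no filter on low counts, halved counts and the fit without the labelled libraries, and 1 in the fit of the compared groups alone. That last fit, which uses fewer libraries, also called 1 member instead of 0 for KO-vector minus WT-vector and 1 for the labelled libraries minus KO-vector. By direction, members higher in dMTS-DELE1 than in F137S cells in vehicle numbered 1 with no filter and 4 in the fit of the compared groups alone, instead of 2, and members that rose with antimycin in dMTS-DELE1 cells numbered 4 in that fit, instead of 7. Replicate numbers did not pair libraries: residuals of the same number correlated at -0.00102 on average, and 9 of 40 libraries correlated best with their own number. The replicate block gave 40 members called instead of 39 in WT-vector cells, 27 instead of 28 in dMTS-DELE1 cells and 15 that fell in all 5 lines, and it changed 0 of 157 named results. Medians moved in 4 cases over all matching symbols, 2 under DESeq2 size factors and 2 with members sorted by structure.

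With each library left out in turn, members called for antimycin ranged from 31 to 37 in WT-vector cells, 28 to 33 in KO-vector cells, 35 to 39 in the labelled libraries, 28 to 31 in F137S cells and 22 to 24 in dMTS-DELE1 cells. By direction, 13 fell and 18 rose in F137S cells without F137S antimycin replicate 3, instead of 23 and 10. They ranged from 1 to 4 for the response of dMTS-DELE1 minus F137S cells, 0 to 1 for that of KO-vector minus WT-vector cells, where leaving out KO-vector antimycin replicate 2 gave 1, and 1 to 3 for genes that rose in all 5 lines. Of the 1272 such refits of named results, 37 no longer passed. Changes near 0.1 on the log2 scale, with standard errors near 0.04, are limited by the spread between libraries. Genes with shared exons and MRPS18B, with its few counts, are the least certain members.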
